A study of Mus musculus with 6 samples.

Results

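The genes described here are 9 transcription factor genes of the microglial and macrophage lineage, Sall1, Spi1, Irf8, Runx1, Cebpa, Cebpb, Mef2a, Mef2c and Maf, taken by symbol from the table of 21851 genes. All 9 were counted in every library, and all 9 were among the 13477 genes that passed the filter on low counts. The libraries came from cells sorted from mouse retina for intermediate CD11b and positive CD45, a gate the labels call microglia, and were made with Smart-seq2, a full-length cDNA protocol. The genotype label was CD36 CKO for 3 libraries, with the scavenger receptor gene Cd36 conditionally knocked out, and CD36 flox for the other 3, which the protocol calls wildtype. The Cre driver, the age of the mice and the sex of the mice are not given in the labels used here. The protocol describes intravenous sodium iodate (NaIO3), an oxidant toxic to the retinal pigment epithelium, at 20 mg/kg beside buffer-injected controls, with eyes taken after 7 days, and no label says which of these a library received. By their codes, CKO 2 and CKO 3 carry one mouse number with a right and a left eye, and so do flox 2 and flox 3, so each such pair may come from 1 mouse. The comparison asks whether the factor that sets microglia apart from other macrophages, Sall1, differed between the labels in the way that the factors shared by macrophages did.

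Macrophage identity is written in layers of transcription factors. PU.1, the product of Spi1, opens enhancers in all macrophages together with IRF8, RUNX1 and C/EBP proteins, while MEF2 factors, MAF and, above all, SALL1 act on top of these to give microglia their own programme, in which TGF-beta signalling and SMAD proteins take part. SALL1 is a zinc finger factor that, within the macrophage family, is found mainly in microglia, and mouse microglia without it lose part of their resting signature and take on features of inflammatory or peripheral macrophages.

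Library totals ran from 13462683 to 20018910 counts, and levels are given in CPM, which relates counts to the TMM-corrected library total. A count of 0 would allow up to 3 counts, which is 0.145 to 0.251 CPM. Such limits cover counting error only. Cd36 itself stood at 122, 65.2 and 28.5 CPM in the libraries labelled CKO 1, 2 and 3, against 90.5, 193 and 144 CPM in flox 1, 2 and 3. The library labelled CKO 1 thus held more Cd36 than flox 1, and every direction below refers to the labels. Haemoglobin transcripts stood at 1759 to 4243 CPM in the library labelled CKO 1, flox 2 and flox 3, and under 1 CPM in CKO 2, CKO 3 and flox 1. General macrophage genes do not tell microglia from other macrophages, and all 24 listed ones (Csf1r, Tyrobp, C1qa and others) were counted in every library, with a summed level of 35149 to 60410 CPM in CKO and 32639 to 39414 CPM in flox. Genes of resident microglia were counted in every library too, but Sall1 and Crybb1, which belong to the microglial signature, were low in 4 of the 6 libraries. Rod photoreceptor genes summed to 27129, 11279 and 10755 CPM in CKO 1 to 3, against 10999, 15640 and 24133 CPM in flox 1 to 3.

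Promoter windows, 250 bases before to 50 bases after a start site, were matched by symbol for 7 of the 9 genes (13 windows, RefSeq, GRCm38.p6). Shown are windows of the genes whose levels parted the libraries in the results that follow, Sall1, Mef2c, Cebpb and Mef2a, with motif matches in capitals and all other bases in lower case, read 5′ to 3′ along the gene's strand.
Sall1, chr8:89044113-89044412, minus strand: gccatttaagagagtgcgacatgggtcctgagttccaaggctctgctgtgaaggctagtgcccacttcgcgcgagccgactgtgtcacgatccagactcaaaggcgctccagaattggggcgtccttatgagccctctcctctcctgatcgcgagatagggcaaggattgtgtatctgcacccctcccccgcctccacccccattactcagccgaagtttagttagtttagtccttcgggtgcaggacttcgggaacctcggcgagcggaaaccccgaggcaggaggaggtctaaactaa
Cebpb, chr2:167688665-167688964, plus strand: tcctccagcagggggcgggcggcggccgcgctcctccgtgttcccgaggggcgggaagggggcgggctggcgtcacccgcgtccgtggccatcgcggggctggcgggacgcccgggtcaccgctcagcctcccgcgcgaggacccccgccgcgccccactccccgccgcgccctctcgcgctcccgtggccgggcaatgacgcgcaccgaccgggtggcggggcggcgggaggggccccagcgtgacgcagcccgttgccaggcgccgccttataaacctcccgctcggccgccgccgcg
Mef2c, chr13:83523406-83523705, plus strand: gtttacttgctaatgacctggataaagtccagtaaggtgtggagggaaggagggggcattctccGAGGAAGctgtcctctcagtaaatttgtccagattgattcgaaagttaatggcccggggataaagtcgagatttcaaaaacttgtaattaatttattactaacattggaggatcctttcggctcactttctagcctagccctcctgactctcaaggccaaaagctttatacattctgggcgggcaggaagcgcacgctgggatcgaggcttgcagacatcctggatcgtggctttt
Mef2a, chr7:67372809-67373108, minus strand: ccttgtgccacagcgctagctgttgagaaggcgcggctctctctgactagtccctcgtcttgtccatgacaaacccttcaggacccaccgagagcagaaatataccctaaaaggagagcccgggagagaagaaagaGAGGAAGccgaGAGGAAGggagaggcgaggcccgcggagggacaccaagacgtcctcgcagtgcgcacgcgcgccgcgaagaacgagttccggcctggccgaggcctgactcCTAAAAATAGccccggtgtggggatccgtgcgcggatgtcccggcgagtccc
Motifs were searched on both strands for the PU.1 (GAGGAAG), RUNX (TGTGGT), C/EBP (TTNNGCAA), Maf (TGCTGAC) and AP-1 (TGANTCA) motifs, and for the longer MEF2 motif and the joint motif of PU.1 with an IRF, and no matches in these windows overlapped one another. The Mef2a window holds PU.1 letters at 2 positions and MEF2 letters across the start site. The Mef2c window holds PU.1 letters once, the most upstream Runx1 window (chr16:92826025-92826324, minus strand) holds RUNX letters at 2 positions just after the start, and another Mef2c window holds AP-1 letters. Of the 3 Mef2c windows, PU.1 letters occur only in the window shown. The 3 Sall1 windows, the 2 Irf8 windows and the Cebpa and Cebpb windows hold none of these letters. The remaining Mef2c window and the other Runx1 window hold none either. Among all 32851 windows of this length, 13.6% hold the PU.1 letters, 16.8% the RUNX letters, 10.8% the C/EBP letters, 7.81% the AP-1 letters, 4.67% the Maf letters, 3.69% the MEF2 letters and 2.72% the PU.1 with IRF letters. The windows differed widely in CpG content, with 50 CpG pairs in the Cebpb window and 18 to 39 in the 3 Sall1 windows, but 1 to 10 in the 3 Mef2c windows, beside a median of 7 over all windows.

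Sall1 was low in 4 of the 6 libraries, the 3 labelled CKO and flox 1. Its level was 1.16, 1.84 and 1.54 CPM in the libraries labelled CKO 1, 2 and 3 (19, 22 and 30 counts), against 0.969, 17.5 and 16.8 CPM in flox 1, 2 and 3 (20, 338 and 265 counts). Flox 1 had the lowest level of all, so the groups overlapped, and the high flox mean came from flox 2 and flox 3, the libraries of a shared code. The means were 1.52 ± 0.339 CPM in CKO and 11.7 ± 9.34 CPM in flox (SD, n = 3 each). Fitted by edgeR's quasi-likelihood method, log2(CKO/flox) came to -2.95 with an SE of 0.93 and an unadjusted p of 0.0137 (edgeR). After Benjamini-Hochberg adjustment over the 13477 tested genes, edgeR gave an adjusted p of 0.9996. DESeq2 gave an adjusted p of 0.0985. Without flox 1 the log2 fold change was -3.50 (edgeR adjusted p = 0.114), and with both flox libraries of the shared code left out, flox 1 alone against 3 CKO libraries, it was 0.62. With haemoglobin state as a term it was -1.59 (SE 1.21, edgeR unadjusted p = 0.230), while linking same-code libraries through an estimated correlation gave -1.90 (SE 1.68, limma unadjusted p = 0.291). Among libraries with haemoglobin the log2 ratio came to -3.88, and among those without it to 0.80. The gene occupies bases 89027235 to 89044162 of chromosome 8 (GRCm38, minus strand), and later positions are on the same build.

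**Figure D1:**
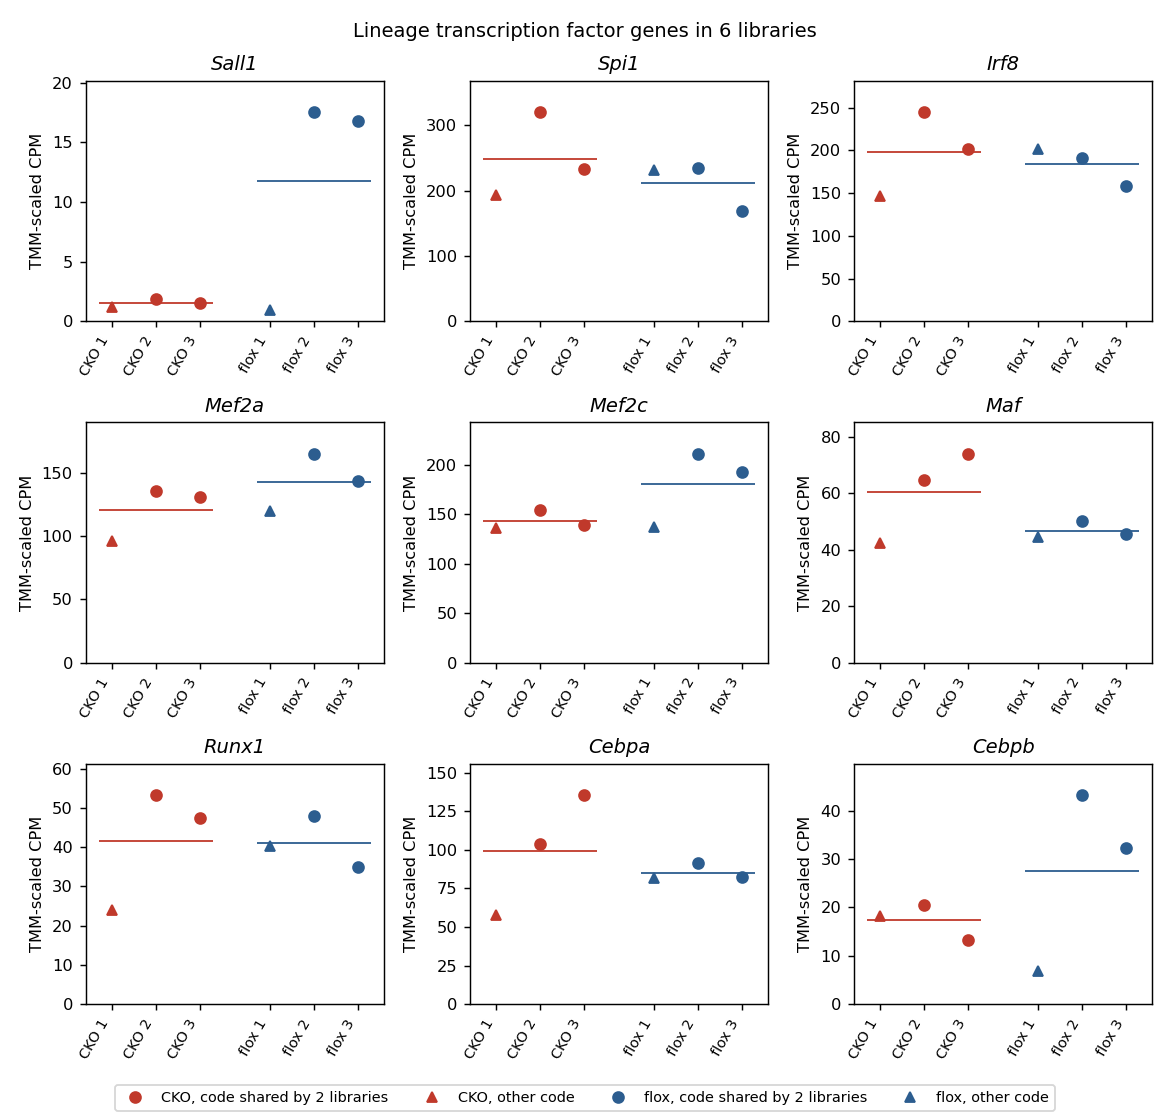
Level of each gene in TMM-scaled CPM (vertical axes from 0) in the 3 CKO libraries (red) and the 3 flox libraries (blue); lines are group means, circles mark libraries whose code is shared by 2 libraries and triangles the others. Sall1 stands at 17.5 and 16.8 CPM in flox 2 and flox 3 and at 0.969 to 1.84 CPM in the other 4 libraries, while Spi1 and Irf8 overlap between the groups.

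Spi1 encodes PU.1, without which no macrophages form. It stood at 193, 320 and 234 CPM in CKO 1 to 3, against 231, 234 and 168 CPM in flox 1 to 3. The groups overlapped throughout, and flox 2 and flox 3, the libraries rich in Sall1, held the second highest and the lowest Spi1 values. The log2 fold change was 0.24 (SE 0.23). The gene lies on chromosome 2 at 91082390 to 91115756 (plus strand).

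Irf8 encodes the interferon regulatory factor that pairs with PU.1 and is needed for normal microglia and for monocytes and dendritic cells. Its levels were 146, 245 and 202 CPM in CKO 1 to 3, against 202, 191 and 158 CPM in flox 1 to 3. The ranges overlapped, with the lowest and the highest value both in CKO, and the log2 fold change was 0.11 (SE 0.22). Irf8 lies on chromosome 8 at 120736358 to 120756694 (plus strand).

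Runx1, a factor of blood cell formation that is also active in early microglia, stood at 23.9, 53.3 and 47.4 CPM in CKO 1 to 3, against 40.2, 48.1 and 34.9 CPM in flox 1 to 3. The CKO values lay on both sides of the flox values, and the means hardly differed (41.5 ± 15.5 and 41.1 ± 6.64 CPM, log2 fold change 0.01, SE 0.30). The low CKO value is that of the library labelled CKO 1, the CKO library with haemoglobin. With CKO 2 and CKO 3 left out together, which leaves CKO 1 alone against 3 flox libraries, the log2 fold change was -0.78. Runx1 lies on chromosome 16 at 92601466 to 92826149 (minus strand).

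Of the C/EBP genes, Cebpa, which drives myeloid commitment, stood at 58.1, 104 and 135 CPM in CKO 1 to 3, against 81.8, 91.8 and 82.3 CPM in flox 1 to 3. Its CKO values spread 2.33-fold around a tight flox group (1.12-fold), and its log2 fold change was 0.22 (SE 0.28), or -0.56 with CKO 2 and CKO 3 left out. Cebpb, an activity-induced factor of inflammatory macrophages, stood at 18.3, 20.4 and 13.4 CPM in CKO 1 to 3, against 6.93, 43.2 and 32.2 CPM in flox 1 to 3. As with Sall1, flox 1 was the lowest library and flox 2 and flox 3 the highest, so that the flox values enclosed the CKO values. The Cebpb log2 fold change was -0.66 (SE 0.57), but 1.30 with flox 2 and flox 3 left out, which leaves flox 1 alone, and -1.12 without flox 1. Cebpa lies on chromosome 7 at 35119293 to 35121928 and Cebpb on chromosome 2 at 167688915 to 167690418 (both plus strand). Of the 1504 exon bases of Cebpb, 312 are shared with Tmem189 on the other strand, and with no stated strand setting reads there cannot be assigned.

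The MEF2 genes encode MADS-box factors that act at microglial enhancers, and Mef2c restrains the response of microglia to interferon in mice. Mef2c stood at 136, 154 and 139 CPM in CKO 1 to 3, against 137, 211 and 192 CPM in flox 1 to 3. Flox 2 and flox 3 lay above the other 4 libraries, which were within 136 to 154 CPM. Mef2a stood at 96.1, 135 and 131 CPM in CKO 1 to 3, against 120, 165 and 143 CPM in flox 1 to 3, again with flox 2 and flox 3 at the top. The log2 fold change was -0.33 (SE 0.19) for Mef2c and -0.24 (SE 0.20) for Mef2a. Mef2c lies on chromosome 13 at 83504034 to 83667080 (plus strand) and Mef2a on chromosome 7 at 67231163 to 67372858 (minus strand). Of the 14681 exon bases of Mef2a, 302 are shared with Lysmd4 on the other strand, with the same limit.

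Maf, which encodes c-Maf, a large Maf factor of mature tissue macrophages, had the highest log2 fold change of the 9 genes, 0.37 (SE 0.22). Its levels were 42.4, 64.7 and 74.0 CPM in CKO 1 to 3, against 44.5, 50.2 and 45.6 CPM in flox 1 to 3. CKO 2 and CKO 3 lay above all flox libraries and the library labelled CKO 1 below them, so the groups overlapped. Maf lies on chromosome 8 at 115682942 to 115707794 (minus strand) and shares 440 of its 8241 exon bases with the antisense gene Gm15655.

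Of the 9 genes, 0 passed at an adjusted p of 0.05, as did 0% of all tested genes (edgeR, Benjamini-Hochberg), and DESeq2 called 0 of the 9 and 0.161% of the genes to which it gave an adjusted p. Sall1 alone of the 9 had an unadjusted edgeR p under 0.05, beside 2.81% of all tested genes in either direction, 1.37% lower and 1.45% higher in CKO. That p was no longer under 0.05 with shared codes linked, shared codes summed (edgeR unadjusted p = 0.0777), the haemoglobin term, limma-voom (unadjusted p = 0.250) or CKO 1 left out (edgeR unadjusted p = 0.0592). Other genes of the 9 came under 0.05 in some settings that kept at least 2 libraries a group, with edgeR unadjusted p-values of 0.00974 for Maf and 0.0256 for Cebpa without CKO 1, 0.00351 for Cebpb and 0.0248 for Mef2c without flox 1, and 0.0349 for Mef2c on library totals only. None of these passed after adjustment (edgeR adjusted p of 0.564 or more without CKO 1 and 0.594 or more without flox 1). Separation of all CKO from all flox libraries was seen in 0 of 9 genes, beside 8% of all tested genes (4.12% lower and 3.88% higher in CKO). Fold changes were positive for 5 genes and negative for 4, beside 49.4% negative among all tested genes, and their median was 0.015 beside 0.0037. The adjusted p was 0.9996 for each of the 9 genes. All 9 log2 ratios were negative within the haemoglobin-positive libraries (1 CKO against 2 flox), between -3.88 for Sall1 and -0.06 for Spi1, beside 50.5% of all tested genes. All 9 were positive within the haemoglobin-negative ones (2 CKO against 1 flox), between 0.10 for Mef2c and 1.29 for Cebpb, beside 52.1% of all tested genes. CKO 1, the CKO library with haemoglobin, had the lowest sum over the 9 genes, at 715 CPM beside 865 to 1098 CPM in the other 5 libraries, and the highest rod sum, whose part in these ratios was not tested. These ratios rest on 1 library on either the CKO or the flox side and were not tested.

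**Figure D2:**
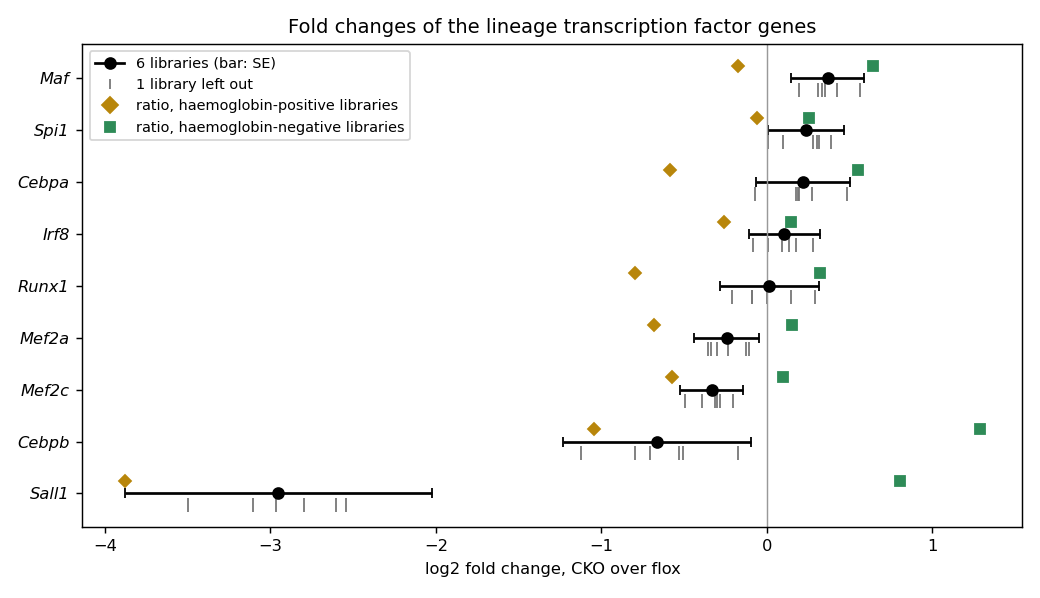
Log2 fold change of CKO over flox (horizontal axis) for each gene; black points with bars show the fit on all 6 libraries with its SE, grey ticks the fits with 1 library left out, diamonds and squares the log2 ratios within haemoglobin-positive and haemoglobin-negative libraries. For Sall1 the fit gives -2.95 and the ratios -3.88 and 0.80, on opposite sides of 0.

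Set against Spi1 within the same library, which removes library scaling, Sall1 gave the same picture. There were 6.04, 5.77 and 6.60 Sall1 counts per 1000 Spi1 counts in CKO 1 to 3, against 4.19, 74.7 and 99.7 in flox 1 to 3. The 3 CKO libraries were nearly alike and lay just above flox 1, while flox 2 and flox 3 lay far above these 4. On the log2 scale the ratio averaged -7.34 ± 0.10 in CKO and -4.99 ± 2.52 in flox (SD, n = 3 each), a difference of -2.36 that turned to 0.55 with flox 2 and flox 3 left out. Against the mean of the 8 other factors the difference was -2.12, and 0.38 with those libraries left out. Those 8 include Mef2a, Mef2c and Cebpb, which were also highest in flox 2 and flox 3. Cebpb per 1000 Spi1 counts stood at 94.7, 63.9 and 57.2 in CKO 1 to 3, against 29.9, 184 and 192 in flox 1 to 3. No test was made of these ratios, since the genes were chosen with earlier results known.

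**Figure D3:**
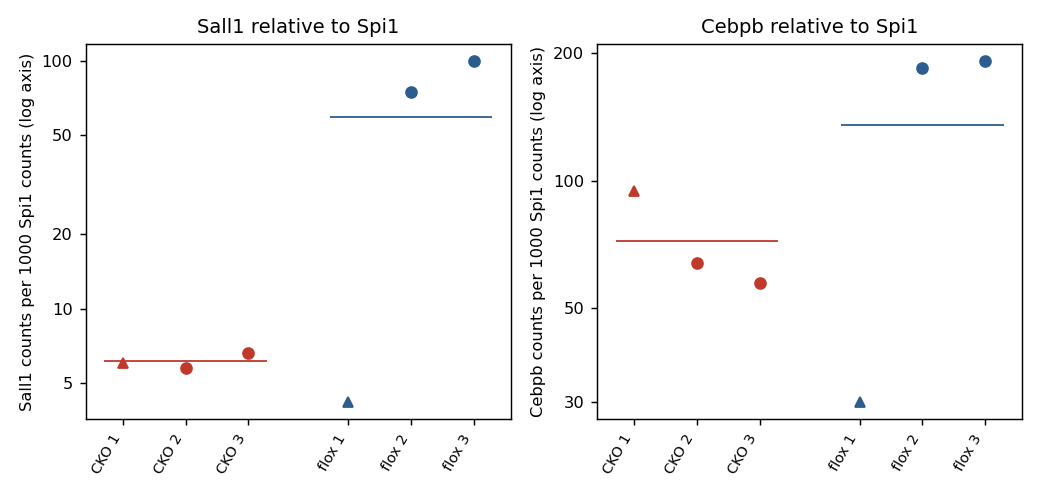
Counts of Sall1 (left) and Cebpb (right) per 1000 Spi1 counts on log axes, in the 3 CKO libraries (red) and the 3 flox libraries (blue); lines are group means, circles mark libraries whose code is shared by 2 libraries. For both genes flox 1 is the lowest library and flox 2 and flox 3 the highest, at 74.7 and 99.7 for Sall1.

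The factors also differed in how much they varied between libraries. The highest library exceeded the lowest 18.1-fold for Sall1 and 6.24-fold for Cebpb, but 1.56- to 2.33-fold for the other 7 genes. The median over the 12959 tested genes with a count in every library was 1.92-fold, and 96.7% of these genes varied less than Sall1. Almost all of the Sall1 spread lay within the flox group (18.1-fold), against 1.58-fold within CKO. Per kilobase of annotated exon, Spi1 was the highest of the 9 in every library, at 62.3 to 119 CPM per kb. Cebpa (22.05 to 51.4), Irf8 (20.7 to 34.7) and Cebpb (4.605 to 28.7 CPM per kb) came next and overlapped as neighbours in that order. Mef2c (8.64 to 13.4), Mef2a (6.54 to 11.2) and Maf (5.15 to 8.98 CPM per kb) overlapped in turn, each also with the gene before it. Runx1 (1.99 to 4.43 CPM per kb) lay clear below Maf, and Sall1 (0.184 to 3.33 CPM per kb) overlapped with Runx1 through flox 2 and flox 3. Exon lengths join all annotated transcripts of a gene, which lowers the value of genes with long alternative ends.

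Most genes on the list for resident microglia were, like Sall1, highest in flox 2 and flox 3. Of 14 such genes tested, 0 passed, 12 lay on the negative side and 2 on the positive, and their median log2 fold change was -0.93 beside 0.0037 over all tested genes. For 12 of the 14, both flox 2 and flox 3 lay above all 4 other libraries, a pattern that was counted after the values had been seen and that 8.67% of all tested genes showed. Of the 9 lineage factors, 4 showed it: Sall1, the gene whose pattern was being matched, and Mef2a, Mef2c and Cebpb. Of 24 general macrophage genes 1 did, the integrin gene Itgam. The nucleotide receptor gene P2ry12 stood at 90.1, 139 and 110 CPM in CKO 1 to 3, against 82.4, 324 and 194 CPM in flox 1 to 3. The fructose transporter gene Slc2a5 stood at 3.37, 3.52 and 1.23 CPM in CKO, against 1.70, 18.9 and 9.29 CPM in flox, and the crystallin gene Crybb1 at 0.920, 2.34 and 1.34 CPM in CKO, against 0.291, 19.8 and 8.41 CPM in flox. In both, flox 1 lay among or below the CKO libraries. Cx3cr1, the fractalkine receptor gene, was the only one of the 14 whose groups did not overlap, at 130, 188 and 111 CPM in CKO, against 221, 476 and 323 CPM in flox (log2 fold change -1.25, SE 0.31, edgeR unadjusted p = 0.00392). Over all tested genes, 4.12% were lower in CKO without overlap. Tmem119, a membrane protein gene much used to identify microglia, did not follow Sall1: it stood at 250, 269 and 235 CPM in CKO, against 201, 287 and 174 CPM in flox. The cystatin gene Cst3 was the other exception, and had the highest level of the 14. Summed over the 14 genes, levels were 8460, 12003 and 10599 CPM in CKO 1 to 3, against 8306, 13660 and 11474 CPM in flox 1 to 3. In that sum flox 3 lay below CKO 2. Cst3, the largest part of that sum, stood at 5334, 7443 and 7283 CPM in CKO, against 5459, 5989 and 5750 CPM in flox.

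General macrophage genes had a median log2 fold change of 0.13, with 21 of 24 positive and 0 passing. Csf1r, the receptor on which microglial survival depends, stood at 658, 857 and 952 CPM in CKO 1 to 3, against 584, 934 and 740 CPM in flox 1 to 3. The lysozyme gene Lyz2 was the only one with groups that did not overlap, at 8978, 19889.6 and 9393 CPM in CKO, against 5438, 6632 and 6170 CPM in flox (log2 fold change 1.07, SE 0.32, edgeR unadjusted p = 0.00951). This 1 of 24 stands beside 3.88% of all tested genes that were higher in CKO without overlap. The cytokine receptor gene Csf2rb had a log2 fold change of 0.57 and the adhesion receptor gene Adgre1 one of 0.45 (SE 0.25 and 0.23).

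**Figure D4:**
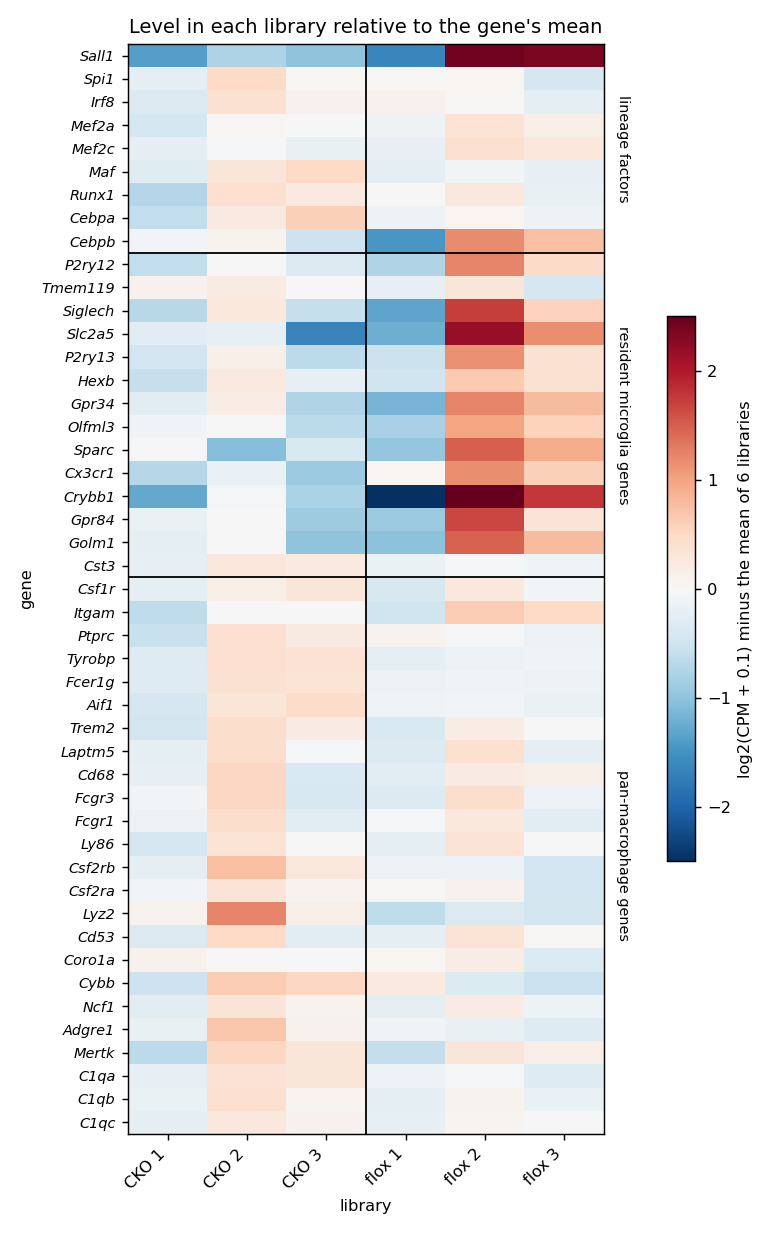
Log2(CPM + 0.1) of each gene minus its mean over the 6 libraries (colour, limited to 2.5 in either direction), with CKO libraries left of the line and flox libraries right of it. Sall1 and 12 of 14 genes of resident microglia are highest in flox 2 and flox 3, a pattern seen in 1 of 24 general macrophage genes and 8.67% of all tested genes.

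Relatives and partners of the 9 factors were examined as a list of 19 genes, of which 17 were tested and 0 passed. Fold changes were positive in 11 and negative in 6, with 0.23 as the median on the log2 scale. Sall3, the paralog of Sall1, was the 1 gene of the list with flox 2 and flox 3 above all others, at 2.88, 0.251 and 1.70 CPM in CKO 1 to 3, against 0.436, 11.0 and 8.85 CPM in flox 1 to 3. That is 5.88% of the 17, below the 8.67% of all tested genes. Mafk and Runx3 (11.8%) had flox 2 and flox 3 below all others, also beside 8.67% of all tested genes. Sall2 did not show the split of Sall3 (3.99, 2.68 and 4.78 CPM in CKO, against 3.63, 5.70 and 4.05 CPM in flox). Spib, the PU.1 relative of plasmacytoid dendritic and B cells, was low but did not overlap, at 1.04, 2.34 and 1.65 CPM in CKO, against 0.484, 0.259 and 0.695 CPM in flox (edgeR unadjusted p = 0.0496). It rests on 5 to 32 counts a library. It was the 1 gene of the 17 without overlap, beside 3.88% of all tested genes higher in CKO without overlap. Irf4, the relative of Irf8, had a log2 fold change of 1.78 (SE 0.88) and Runx2 one of 0.99 (SE 0.54), both with overlapping groups. Cbfb, the common partner of RUNX factors, stayed within 76.6 to 86.5 CPM in CKO and 76.0 to 90.9 CPM in flox.

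Among 43 tested genes of other myeloid transcription factors, 0 passed. Fold changes were positive in 25 and negative in 18, and the log2 median was 0.037. Klf2, a quiescence factor that cell dissociation also induces, stood at 32.6, 37.3 and 38.5 CPM in CKO 1 to 3, against 40.6, 154 and 88.4 CPM in flox 1 to 3. Its groups did not overlap (log2 fold change -1.38, SE 0.43, edgeR unadjusted p = 0.0125), and flox 2 and flox 3 were the high libraries. Of the 43 genes, 4 (9.3%) had flox 2 and flox 3 above all others, near the 8.67% of all tested genes. Groups did not overlap for 2 genes lower and 1 higher in CKO, beside 4.12% and 3.88% of all tested genes. Tfec, an MiT-family factor of macrophages, stood at 3.56, 9.46 and 7.61 CPM in CKO, against 1.94, 2.64 and 2.66 CPM in flox (log2 fold change 1.51, SE 0.48, edgeR unadjusted p = 0.0131). Bhlhe40, a factor of activated macrophages, had a log2 fold change of 0.71 (SE 0.39) with overlapping groups, while its paralog Bhlhe41 had flox 2 and flox 3 (59.8 and 59.1 CPM) above the other 4 libraries (32.1 to 48.1 CPM).

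Across the 6 libraries, the 5 genes most like Sall1 by Pearson correlation of log2 CPM were Nav3, Atp2c1, Tcim, Sh3bp5 and Cdc37l1 (r = 0.98 to 0.99), among 12789 genes with a mean of at least 1 CPM. Nav3, a neuron navigator gene, stood at 4.41, 7.96 and 6.79 CPM in CKO 1 to 3, against 3.92, 67.7 and 42.1 CPM in flox 1 to 3. Mef2c ranked eighth (r = 0.98), Cebpb had r = 0.86 and Mef2a r = 0.77, while Spi1 (r = -0.35), Irf8 (r = -0.23) and Maf (r = -0.18) did not share the pattern. Sall1 fell into 2 high and 4 low libraries, so each r rests on flox 2 and flox 3, and 149 genes reached r = 0.9.

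Markers of some other cells also differed in flox 2 and flox 3. The Mueller glia and neutrophil sums given below did not set those libraries apart. Monocyte genes, all 14 of which were counted in every library, summed to 618, 1018 and 1271 CPM in CKO 1 to 3, against 979, 460 and 358 CPM in flox 1 to 3, lowest in the libraries rich in Sall1. As single genes, 12 of 14 had a positive fold change (median 0.67), and 4 had groups that did not overlap, beside 3.88% of all tested genes higher in CKO without overlap. Both flox 2 and flox 3 were lowest for 4 of the 14 genes and highest for 1, beside 8.67% of all tested genes in each direction. The calcium-binding protein gene S100a4, 1 of the 4 without overlap, stood at 32.7, 42.2 and 44.2 CPM in CKO, against 23.4, 24.8 and 16.8 CPM in flox, with flox 2 above flox 1. Border-associated macrophage genes, 9 of 10 of them counted in every library, summed to 949 to 1979 CPM in CKO and 701 to 1103 CPM in flox, where flox 2 (842) and flox 3 (701 CPM) were the lowest of all. That order rested on Ms4a7 (417, 1692 and 1239 CPM in CKO, against 760, 394 and 437 CPM in flox), and without it the sums were 533, 287 and 274 CPM in CKO, against 343, 448 and 264 CPM in flox. Of the 9 tested genes of the list, 1 was lowest in both flox 2 and flox 3 (11.1%), near the 8.67% of all tested genes. Mrc1, the mannose receptor gene, was highest in flox 2, at 39.5, 29.1 and 23.9 CPM in CKO, against 41.1, 53.1 and 36.3 CPM in flox. Dendritic cell genes, 8 of 9 counted in every library, summed to 200 to 355 CPM in CKO and 212 to 388 CPM in flox, but that list shares Siglech with the resident microglia list. Without Siglech, left out after its values were seen, they summed to 146, 251 and 270 CPM in CKO, against 254, 101 and 82.7 CPM in flox, lowest in flox 2 and flox 3, as were 3 of the 9 genes singly. Retinal pigment epithelium genes, 3 of 7 counted in every library, summed to 8.28 to 27.5 CPM in CKO, and to 7.31, 52.0 and 237 CPM in flox 1 to 3, highest in flox 2 and flox 3. The largest part there was Ttr, at 37.7 and 124 CPM, beside 0.668 to 15.1 CPM in the other libraries. Of the 5 tested genes of the list, 4 were highest in both flox 2 and flox 3, beside 8.67% of all tested genes. Best1 was not, and Rpe65, untested, stood at 1.09 CPM in CKO 2, against 0.207 and 7.97 CPM in flox 2 and flox 3. Mueller glia and astrocyte genes, all 12 counted in every library, summed to 13759, 41429 and 31001 CPM in CKO, against 16974, 14712 and 12551 CPM in flox, mostly through Apoe, which macrophages express too (12603, 40135 and 28306 CPM in CKO, against 15498, 13323 and 11743 CPM in flox). Neutrophil genes summed to 137, 55.4 and 208 CPM in CKO, against 240, 65.9 and 69.4 CPM in flox, with S100a8 at 72.5, 4.10 and 104 CPM in CKO, against 143, 15.4 and 18.8 CPM in flox, and Csf3r at 19.8, 44.8 and 36.4 CPM in CKO, against 22.6, 36.0 and 28.9 CPM in flox. Ngp and Camp, granule protein genes, were at 0 in every library. The part of these other cells in the Sall1 pattern was not tested, and in sorted bulk samples fewer cells of a type and less RNA per cell cannot be told apart.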

How the data were processed

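Counts were analysed for 6 libraries, 3 labelled CKO and 3 labelled flox, grouped by their titles. The authors deposited 1 table of estimated counts per gene symbol, unscaled. Per the submitters' processing notes, fastp 0.18.0, HISAT2 2.2.4 and the mm10 build were used. No source used here gives the counting tool, the annotation or the strandedness. Rows without a symbol (83, 0.0122% to 0.0185% of counts) were left out, 22 repeated-symbol rows were summed and values were rounded. Low counts were filtered with filterByExpr, libraries scaled by TMM and groups compared in edgeR 4.0.16 under R 4.3.3 (quasi-likelihood, robust, no covariate), and p-values were adjusted over 13477 genes (Benjamini-Hochberg). Log2 fold changes are CKO over flox with a prior count of 0.125, and an SE is the fold change over the root of its F statistic. DESeq2 1.42.0, limma 3.58.1, other scalings and filters, codes summed or linked, a block, a haemoglobin term (above 100 CPM) and left-out libraries were alternatives. If libraries of a shared code are 1 mouse, p-values over 3 against 3 are too small. Positions and exon lengths come from GENCODE M21 (GRCm38). Cd36, the 9 genes, up to 3 genes of smallest p per list and the 5 genes most like Sall1 were named by rule. Others, such as P2ry12, Tmem119, Sall3 and Bhlhe41, were picked with their values in view. The 9 genes and all lists were chosen with earlier results of these data known.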

Additional observations from a re-analysis of the deposited data

How the results depend on the processing

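The count of genes called was 0 by edgeR, with 379 at an unadjusted p under 0.05, and 0 with each library left out. It was 23 by DESeq2 (581 unadjusted), 2 with the haemoglobin term and 2 with both flox libraries of a shared code left out, an alternative chosen after seeing the data, as was the same for CKO. Each sets 1 library against 3, and the lone library is assumed to vary like the other group. None of these calls was a lineage factor. The 581 unadjusted by DESeq2 are out of 18078 genes with a p, and the 379 by edgeR out of 13477. Library totals without scaling factors moved the median log2 fold change of all genes to -0.12. Sall1 kept its direction in 22 of 24 alternatives, with adjusted p-values of 0.0985 to 0.999999, was -1.59 with the haemoglobin term and -1.90 with codes linked, and turned to 0.62 without both shared-code flox libraries and 0.80 within haemoglobin-negative libraries. Both settings that turned Sall1 leave flox 1 as the only flox library, while the other 22 keep flox 2, flox 3 or both. In the settings with flox 1 alone, the ratio of Sall1 to Spi1 turned to 0.55 and 0.56. The ratio of Sall1 to the 8 other factors turned to 0.38 and 0.38 there. Without flox 2 and flox 3, Cebpb turned to 1.30, Mef2c to 0.039 and Irf8 to -0.050. Without CKO 2 and CKO 3, Spi1 turned to -0.13, Irf8 to -0.33, Maf to -0.14, Runx1 to -0.78 and Cebpa to -0.56. Within haemoglobin-negative libraries Mef2a turned to 0.15, Mef2c to 0.095 and Cebpb to 1.29. Within haemoglobin-positive ones Spi1 turned to -0.061, Irf8 to -0.26, Maf to -0.18, Runx1 to -0.80 and Cebpa to -0.58. With the haemoglobin term Irf8 turned to -0.055, Runx1 to -0.23, Cebpa to -0.015 and Cebpb to 0.092. With codes summed Irf8 was -0.058 and Runx1 -0.17, with library totals only Irf8 was -0.038 and Runx1 -0.13, and with codes linked Runx1 was -0.10. With 1 library left out, log2 fold changes ranged from -3.50 to -2.54 for Sall1, 0.0085 to 0.39 for Spi1, -0.083 to 0.28 for Irf8, -0.21 to 0.29 for Runx1, -0.074 to 0.48 for Cebpa, -1.12 to -0.17 for Cebpb, -0.50 to -0.20 for Mef2c, -0.35 to -0.10 for Mef2a and 0.20 to 0.56 for Maf. Irf8 turned negative without CKO 2, Cebpa without CKO 3 (-0.074), and Runx1 without CKO 2, CKO 3, flox 1 or flox 3. The causes were not tested. Title numbers did not pair the libraries (correlations of same-numbered deviations -0.32, 0.0051 and -0.33). With the replicate block 0 genes were called (265 unadjusted), Sall1 was -2.31 (adjusted p = 0.999, edgeR) and Runx1 turned to -0.049. Sall1 rests on 19 to 30 counts in 4 libraries, which limits its precision there.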
